A study of Danio rerio with 12 samples.

Results

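The angiopoietins and their Tie receptors comprise 5 of the 32520 genes quantified in these larvae, namely the ligands angpt1, angpt2a and angpt2b and the receptors tek and tie1. They were chosen by name, as the Ensembl identifiers whose zebrafish symbol, or else the name of the orthologue, belongs to this family. To analyse how transcription responds when Elmo1 is lost, RNA was sequenced from pools of 30 whole zebrafish larvae aged 120 hours post fertilization (hpf), 6 pools elmo1+/+ and 6 elmo1-/-. Elmo1 is a cytoplasmic adaptor that helps Dock proteins to activate Rac1, a GTPase of cell movement. The elmo1-/- line carries a CRISPR/Cas9 insertion in an early exon that shifts the reading frame and leads to a stop codon. Mutant founders were crossed with Tg(fli1:EGFP), the reporter line in which the study was done, whose fli1 promoter labels endothelial cells. The genotype field of the elmo1-/- samples reads "hz" without an explanation, whereas their titles and the design text name homozygous knockouts, which was followed. The methods name littermates as controls of knockout animals, in their section on adults, but do not say which clutches the pools of these samples came from or whether a pigmentation inhibitor was used, so the p-values measure only the spread between pools.

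Angiopoietins are secreted ligands of the Tie receptor tyrosine kinases of endothelial cells. In mammals, Angpt1 is made mainly by mural and mesenchymal cells around vessels and activates Tek, also named Tie2, whereas Angpt2 is made by endothelial cells and activates or blocks Tek depending on the context. Tie1 binds no angiopoietin with high affinity and acts with Tek as a co-receptor. Zebrafish have a pair of angpt2 copies.

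Expected counts per library, in units of 1000000, totalled 20.8 to 21.8, and 21830 genes passed the filter on low counts, all 5 family members included. The targeted gene elmo1 reached 121.7 (lowest), 128 (median) and 143 (highest) counts per 1000000 counts (CPM) in elmo1+/+ and 97.1, 107 and 120 CPM in elmo1-/- samples. The genotypes did not overlap, but the log2 fold change of -0.26 ± 0.06 (SE, n = 6 each) did not pass the test across all genes (edgeR quasi-likelihood test with Benjamini-Hochberg adjustment, adjusted p = 0.137). All 15 tested markers of larval muscle, liver, lens, neurons, skin and blood cells were above 0 in every sample, and 0 of them were called (edgeR). At an unadjusted p under 0.05, 2 (13.3%) were higher and 0 lower, where 3.06% of all tested genes were higher. These genes, named after their values were seen, were the blood gene cahz (log2 fold change 0.40 ± 0.18, SE) and the neutrophil gene lyz (0.34 ± 0.13).

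Of the family, angpt1 was lower in elmo1-/- larvae, and the other 4 members did not pass the test. This is 1 of 5 members called lower, where 0.124% of all tested genes were called lower, and 0 of 5 called higher, where 0.11% were (edgeR, adjusted p under 0.05). At an unadjusted p under 0.05, 2 of the 5 members were lower and 0 higher, against 3.10% and 3.06% of all tested genes. The genotypes did not overlap in 1 of 5 members, against 0.513% of all tested genes. The members were chosen with earlier results of these data known, so these shares describe the family and do not test it. The median log2 fold change was -0.15 over the 5 members and 0.00 over all tested genes.

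**Figure D1:**
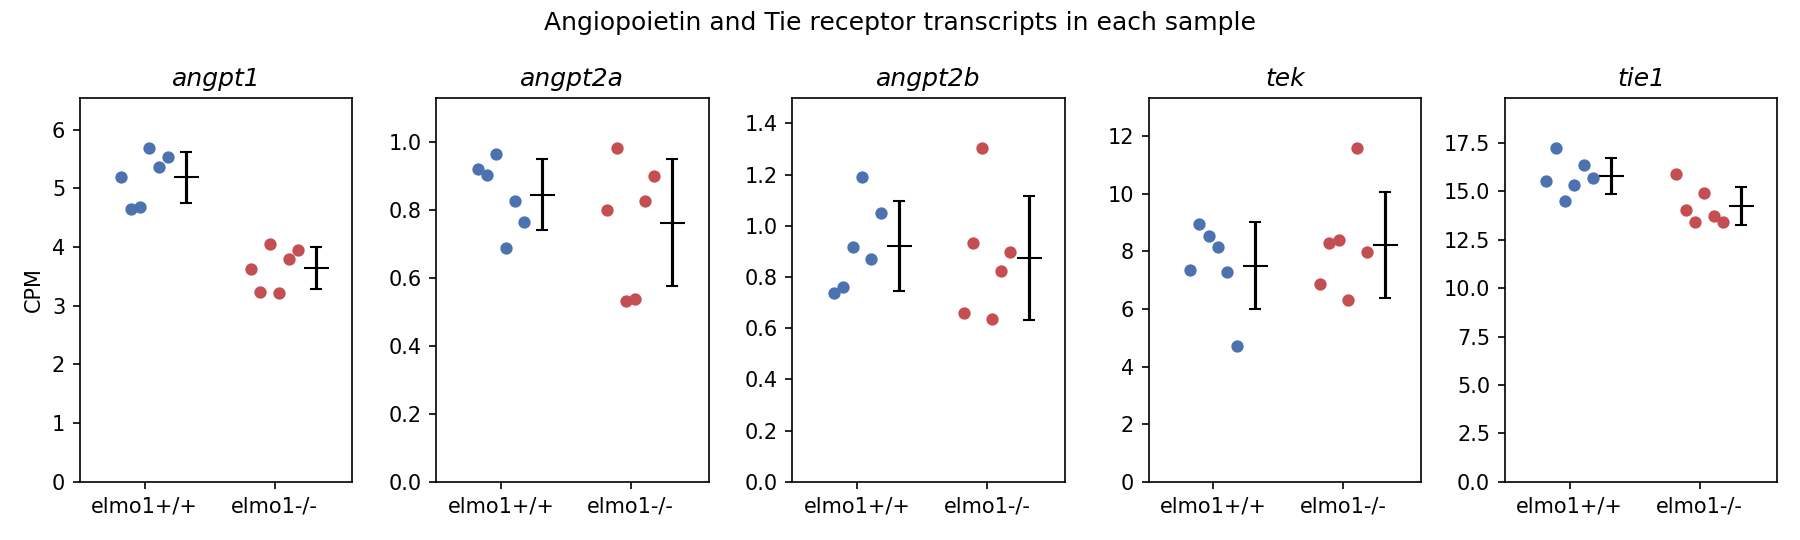
CPM (vertical axes, from 0) of the 5 members in each of the 6 elmo1+/+ (blue) and 6 elmo1-/- (red) samples, with the mean and SD in black. In angpt1 the highest elmo1-/- sample, at 4.05 CPM, lies under the lowest elmo1+/+ sample, at 4.65 CPM, whereas the genotypes overlap in the other 4 genes.

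The ligand angpt1 (ENSDARG00000030364) ranged from 98 to 124 expected counts in elmo1+/+ and from 66 to 84 in elmo1-/- samples. Scaled to library size this gave 4.65, 5.28 and 5.69 CPM (lowest, median, highest) in elmo1+/+ and 3.22, 3.71 and 4.05 CPM in elmo1-/- samples. Each of the 6 elmo1-/- samples was below every elmo1+/+ sample. The mean decreased from 5.18 ± 0.44 to 3.65 ± 0.35 CPM (SD, n = 6 each). The log2 fold change was -0.51 ± 0.09 (SE), or a change of -29.6% with a 95% interval of -39.2% to -18.5% (edgeR, adjusted p = 0.0392). Taken as a single value, the log2 CPM of angpt1 had an unadjusted p of 0.00216 (two-sided exact permutation test), the smallest that 6 against 6 samples can give. Any gene without overlap between the genotypes gets this p, so it adds nothing to the lack of overlap. In whole larvae, fewer cells that express a gene and less RNA per cell cannot be told apart.

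The call of angpt1 lay near the threshold, since its p was the 46th smallest of 51 called genes. With 1 sample left out the log2 fold change stayed between -0.54 and -0.47, whereas the adjusted p in edgeR remained under 0.05 only without elmo1+/+ replicate 2 (0.0423), elmo1+/+ replicate 3 (0.0484) or elmo1-/- replicate 5 (0.0483). It was 0.0946, 0.113, 0.0948 and 0.0967 without elmo1+/+ replicates 1, 4, 5 and 6. Among the mutant samples it was 0.0880, 0.106, 0.0580, 0.104 and 0.0587 without elmo1-/- replicates 1, 2, 3, 4 and 6. The call was thus kept in 3 of these 12 fits. The direction of angpt1 was the same in all 12, which the lack of overlap between genotypes all but fixed beforehand.

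**Figure D2:**
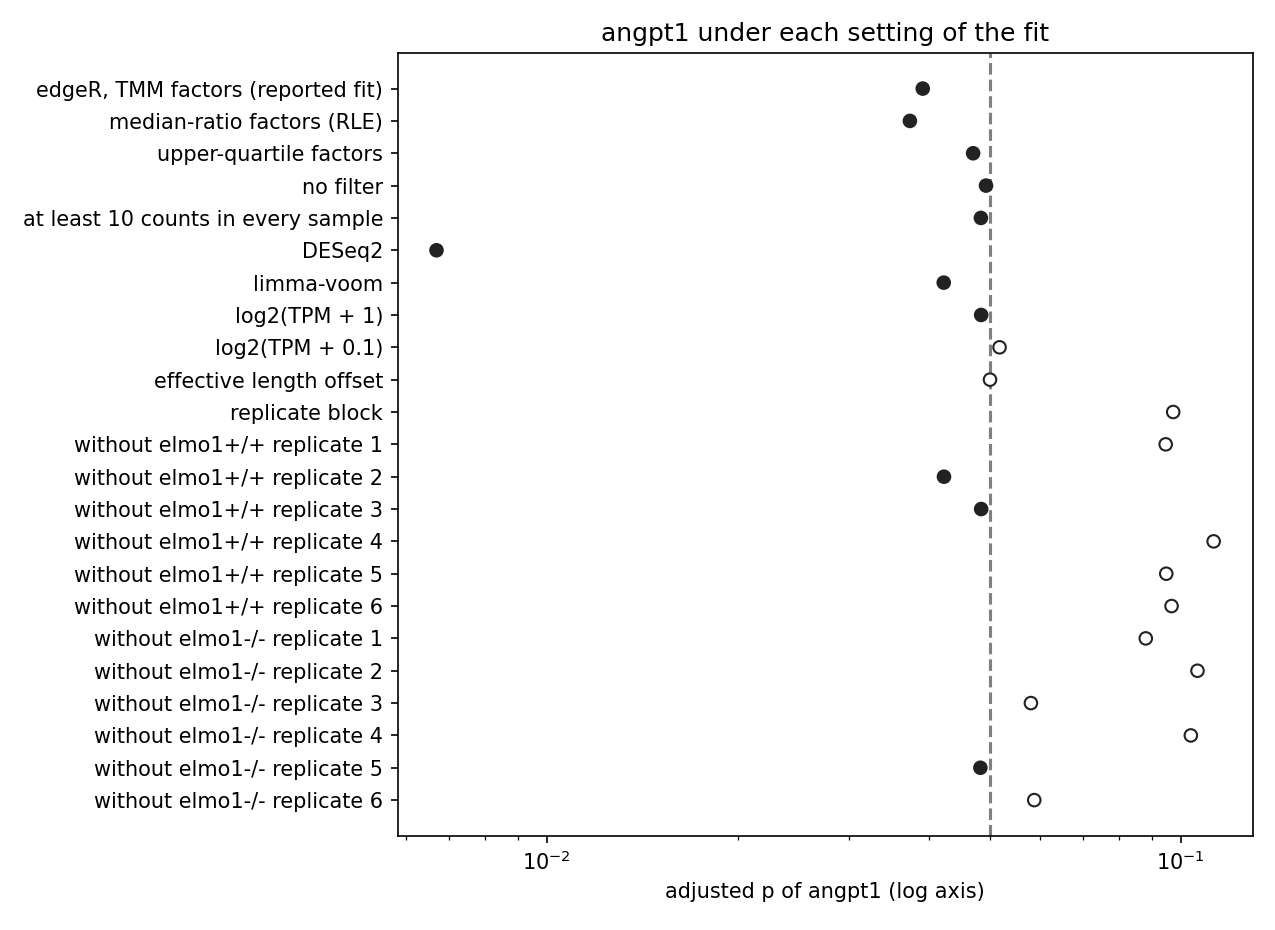
Adjusted p of angpt1 (horizontal log axis) in the reported fit and under each other setting (vertical axis), with filled points under 0.05 and open points at or above it. The dashed line marks 0.05, and the points run from 0.0067 with DESeq2 to 0.113 without elmo1+/+ replicate 4.

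The angpt2 copies were the least abundant members and rested on few reads. For angpt2a (ENSDARG00000014946), 11 to 21 expected counts were found per sample, which gave 0.688, 0.863 and 0.963 CPM (lowest, median, highest) in elmo1+/+ and 0.531, 0.812 and 0.981 CPM in elmo1-/- samples. The lowest and the highest of all 12 values were both elmo1-/- samples, so the genotypes overlapped fully. The log2 fold change was -0.15 ± 0.20 (SE, n = 6 each) with a 95% interval of -0.58 to 0.29 (edgeR, adjusted p = 0.980).

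For angpt2b (ENSDARG00000053906), 13 to 27 expected counts were found per sample. The lowest, median and highest values were 0.736, 0.894 and 1.19 CPM in elmo1+/+ and 0.635, 0.862 and 1.30 CPM in elmo1-/- samples, again with the extremes of all samples on the mutant side. The log2 fold change was -0.07 ± 0.21 (SE, n = 6 each), with a 95% interval of -0.54 to 0.39 (edgeR, adjusted p = 0.988). Without elmo1+/+ replicate 4 or elmo1-/- replicate 4 it was 0.01 and 0.0010. The intervals of both copies include the value measured for angpt1, so a difference of that size is not excluded for them.

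The receptor tek (ENSDARG00000028663), the kinase to which the angiopoietins bind, showed 4.72, 7.76 and 8.97 CPM (lowest, median, highest) in elmo1+/+ and 6.30, 8.14 and 11.6 CPM in elmo1-/- samples. The lowest value belonged to elmo1+/+ replicate 6 and the highest to elmo1-/- replicate 5, while the other 10 samples lay between them in mixed order. The log2 fold change was 0.13 ± 0.16 (SE, n = 6 each), with a 95% interval of -0.22 to 0.49 (edgeR, adjusted p = 0.973). Leaving out either sample brought it to 0.03 or 0.01.

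The co-receptor tie1 (ENSDARG00000004105) showed 14.5, 15.6 and 17.2 CPM (lowest, median, highest) in elmo1+/+ and 13.4, 13.9 and 15.9 CPM in elmo1-/- samples. In 4 of 6 elmo1-/- samples tie1 was below the lowest elmo1+/+ sample. The log2 fold change was -0.15 ± 0.06 (SE, n = 6 each) with a 95% interval of -0.29 to -0.01, which did not pass the adjustment over all genes (edgeR, unadjusted p = 0.0318, adjusted p = 0.755). As a single value, log2 CPM of tie1 differed with p = 0.0216 (two-sided exact permutation test, n = 6 each). With the length assigned to the gene as an offset, the log2 fold change was -0.14 (edgeR, unadjusted p = 0.0823). The unadjusted p was 0.0812 (limma) on log2(TPM + 1) and on log2(TPM + 0.1), where TPM is a level divided by transcript length. In the other settings with all 12 samples it ran from 0.0271 (edgeR with upper-quartile factors) to 0.0468 (DESeq2). The unadjusted p of tie1 was thus larger in the settings that take length into account. The values of tie1 are estimates in all 12 samples, none of them a whole number, and a RefSeq antisense RNA, lnc.tie1, overlaps the gene in the assembly GRCz12tu. Whether strand was used in counting is not given in the sources used here, so reads of tie1 and of its antisense partner cannot be told apart.

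A further ligand gene, angpt4 (ENSDARG00000076787), is outside the 5 members and was looked up after their values were seen. It reached 0.917 to 1.70 CPM in elmo1+/+ and 0.752 to 1.86 CPM in elmo1-/- samples. Its ranges overlapped, and its log2 fold change was 0.14 ± 0.23 (SE, n = 6 each; edgeR, adjusted p = 0.983).

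Levels of different genes were compared as transcripts per 1000000 transcripts (TPM), which are divided by transcript length. Over all 12 samples the order of mean TPM was tie1 (2.92), tek (2.88), angpt1 (2.65), angpt2a (0.661) and angpt2b (0.661). Only the step from angpt1 to angpt2a exceeded the spread, with an angpt1 level 4.13 ± 1.07 times that of angpt2a (SD, n = 12) and above it in 12 of 12 samples (two-sided exact sign-flip permutation test, p = 0.000488, adjusted over 4 neighbour pairs p = 0.00195). The neighbours tie1 and tek (exact permutation p = 0.691, n = 12), tek and angpt1 (exact permutation p = 0.416, n = 12) and angpt2a and angpt2b (exact permutation p = 0.996, n = 12) did not differ beyond their spread. Over both genotypes, angpt1, tek and tie1 thus lay above the pair of angpt2 copies.

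The genotypes differed in the order of their 3 highest means, a difference that was not tested. In elmo1+/+ samples mean TPM was 3.16 for angpt1, 3.10 for tie1 and 2.79 for tek. In elmo1-/- samples it was 2.97 for tek, 2.73 for tie1 and 2.15 for angpt1. The receptor tek exceeded its ligand angpt1 in 2 of 6 elmo1+/+ samples and in 6 of 6 elmo1-/- samples. Within elmo1-/- samples the log2 ratio of tek to angpt1 was 0.44 (two-sided exact sign-flip permutation test, p = 0.0312, the smallest that 6 samples can give, adjusted over 4 neighbour pairs p = 0.0625), and within elmo1+/+ samples it was -0.21 (exact permutation p = 0.281).

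Ratios within a sample were calculated to compare ligands with each other and the receptor with its co-receptor. The ratio of angpt1 to angpt2b was 4.66 ± 0.69 for elmo1+/+ and 3.54 ± 0.75 for elmo1-/- (SD over 6 samples), with overlapping ranges of 3.87 to 5.73 and 2.52 to 4.46. It differed before adjustment over the 4 ratios and not after it (two-sided exact permutation test, p = 0.0238, adjusted p = 0.0952). With 1 sample left out, the adjusted exact permutation p ran from 0.0346 to 0.225. It was under 0.05 in 1 of 12 cases, without elmo1-/- replicate 1. The ratio of angpt1 to angpt2a was 4.56 ± 0.91 for elmo1+/+ and 3.70 ± 1.11 for elmo1-/- (SD over 6 samples), a difference within the spread (exact permutation p = 0.145, adjusted p = 0.290). A stronger change of angpt1 than of either angpt2 copy was hence not shown.

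The angpt2 copies were near equal, with an angpt2a to angpt2b ratio of 1.07 ± 0.29 for elmo1+/+ and 1.02 ± 0.31 for elmo1-/- (SD over 6 samples; exact permutation p = 0.777). The tek to tie1 ratio was 0.899 ± 0.19 for elmo1+/+ and 1.099 ± 0.28 for elmo1-/- (SD over 6 samples; exact permutation p = 0.232, adjusted p = 0.309). In elmo1+/+ replicate 6 it was 0.537, while the other elmo1+/+ samples ranged from 0.867 to 1.06.

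**Figure D3:**
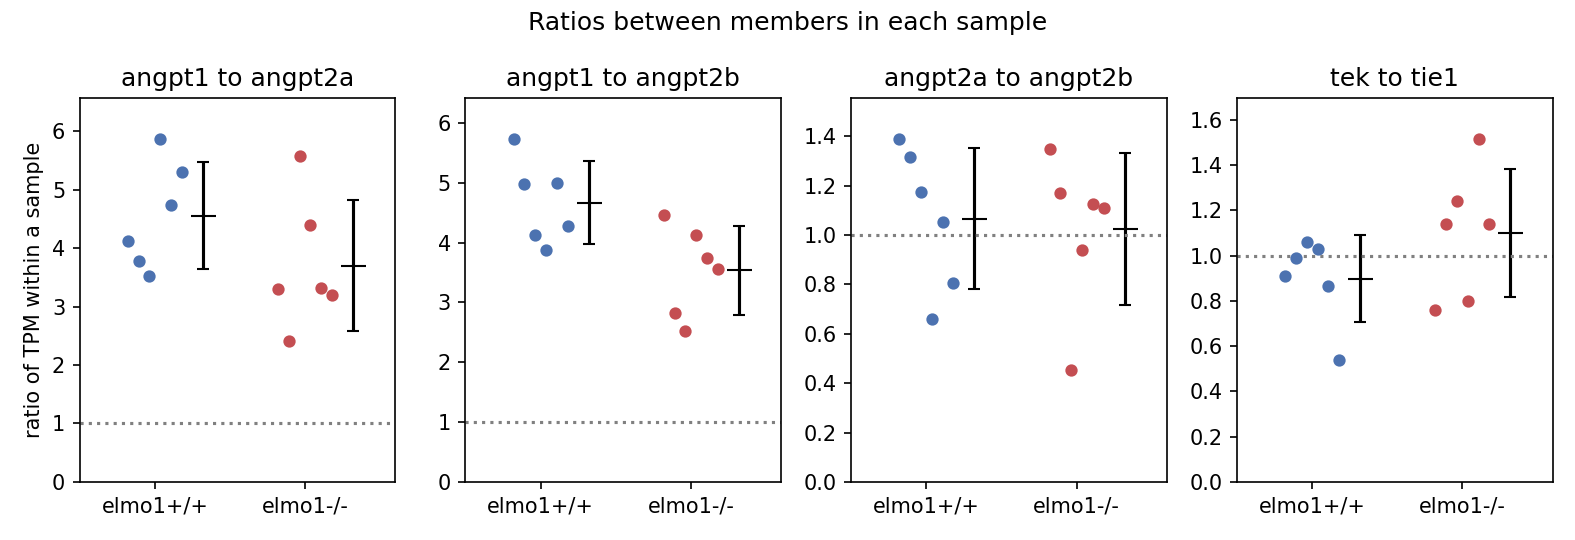
Ratio of TPM within each sample (vertical axes, from 0) for 3 pairs of ligands and for the receptor pair, with 6 elmo1+/+ samples in blue, 6 elmo1-/- samples in red, and the mean and SD in black. The dotted line marks equal levels, above which angpt1 lies in all 12 samples against either angpt2 copy.

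Whether members varied together was examined in log2 CPM after removal of the genotype mean, over 10 pairs of genes. In 0 of 10 pairs the correlation passed the adjustment over pairs. The strongest relations were a negative one between angpt2b and tie1 and a positive one between angpt1 and angpt2b. For angpt2b and tie1, Pearson's r was -0.65 (permutation p = 0.0219, adjusted p = 0.193, n = 12), Spearman's rho was -0.62 (permutation p = 0.0349) and r without the 2 samples farthest from the median was -0.65. For angpt1 and angpt2b, r was 0.60 (permutation p = 0.0386, adjusted p = 0.193, n = 12), rho was 0.69 (permutation p = 0.0169) and r without 2 samples was 0.66. The receptors tek and tie1 gave an r of -0.29 (permutation p = 0.364, n = 12), and angpt1 and its receptor tek an r of -0.05 (permutation p = 0.886, n = 12).

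The genes most like each member were read from the same centred values of 12 samples that share library and depth, as a description. They are the 3 highest r of 17583 or 17584 genes compared for each member. A search of that size over 12 samples can give high r for unrelated genes too, and how high was not tested. For angpt1 these were FARS2 (r = 0.90), TTK (r = 0.89) and ZMPSTE24 (r = 0.89), and for tie1 syn2b (r = 0.93), PCDH18 (r = 0.89) and CLIP3 (r = 0.85). For tek they were TRIP10, ASPN and PTK2B, each with an r of 0.89. The angpt2a values were most like SLC1A7, si:ch211-191a16.3 and rilp, with r from 0.88 to 0.89, and the angpt2b values most like terfa, zgc:158398 and si:dkey-111k8.3, with r from 0.84 to 0.89. None of these 15 genes was on the lists of endothelial or mural markers. Those lists hold only 31 and 20 of 21830 tested genes, so their absence among 15 genes says little. The median r to 31 endothelial markers was 0.20 for tie1, -0.01 for tek and -0.07 for angpt1. To 20 mural markers it was 0.15 for tie1, 0.15 for tek and 0.01 for angpt1, while over all genes it was -0.01 for each.

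The length that the quantification assigned to a gene depends on the mix of its transcripts and was recovered as the count divided by TPM. It varied by 0.245% (angpt1), 0.889% (angpt2a), 0.239% (angpt2b), 0.724% (tek) and 3.67% (tie1) over 12 samples (CV), where the median of 20318 genes was 0.650%. The co-receptor tie1 was the member whose assigned length varied most, between 93.9% and 105% of its mean. Between genotypes the lengths of the 5 members differed by less than the spread (exact permutation tests, adjusted p = 0.864 for each).

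Of 39 listed genes that act with or after the Tie receptors, 38 were tested, namely genes of Tie modulators and co-ligands, adaptors and phosphatases, PI3K and Akt, Foxo and Klf factors and a few target genes. Among them 0 were called higher and 0 lower (edgeR). At an unadjusted p under 0.05, 1 (2.63%) was higher and 0 lower, where 3.06% of all tested genes were higher. This gene, named after its value was seen, was esm1, an endothelial tip cell gene, with a log2 fold change of 0.36 ± 0.13. DESeq2 also called 0 of them. Their median log2 fold change was -0.03. The phosphatase gene ptprb, whose product removes phosphate from Tek, showed a log2 fold change of -0.12 ± 0.08 (SE), and svep1, whose product acts with Tie1 in zebrafish lymphatic development, one of -0.11 ± 0.09. The pair of genes named FOXO1, transcription factors that Tek signaling restrains through Akt, had log2 fold changes of -0.17 ± 0.23 and -0.11 ± 0.06.

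The angiopoietin-like genes resemble the angiopoietins in sequence but are not known to bind Tie receptors. Of 10 tested, 0 were called in either direction by edgeR and 0 by DESeq2. At an unadjusted p under 0.05, 1 (10%) was lower, where 3.10% of all tested genes were lower. The log2 fold changes ranged from -0.46 for angptl8 to 0.11 for angptl4, an inhibitor of lipoprotein lipase. They were -0.17 for angptl1a and -0.21 for angptl1b. The smallest adjusted p of the 10 genes was 0.774 (edgeR).

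Markers of the cells that make these ligands and receptors were measured beside them. How far these genes are confined to such cells in whole larvae was not tested. Of 31 endothelial markers 1 was called lower and 0 higher (edgeR), where 0.124% and 0.11% of all tested genes were. At an unadjusted p under 0.05, 4 (12.9%) were lower and 0 higher, where 3.10% of all tested genes were lower. The median log2 fold change was -0.01. All 31 were above 0 in every sample. The called gene was fli1, an endothelial transcription factor gene whose promoter also drives the reporter of this line. It decreased from 105 ± 3.05 to 80.4 ± 6.49 CPM (SD, n = 6 each), or -0.38 ± 0.05 as log2 fold change (SE; edgeR, adjusted p = 0.00447). The other 3 markers that were lower at an unadjusted p under 0.05, named after their values were seen, were the transcription factor gene erg, the venous gene ephb4a and the lymphatic gene flt4. Their log2 fold changes were -0.40 ± 0.12, -0.18 ± 0.05 and -0.18 ± 0.08, and 3 of the 31 markers, fli1, erg and ephb4a, were without overlap between genotypes. The defining endothelial genes cdh5 and kdrl showed log2 fold changes of -0.01 ± 0.07 and -0.10 ± 0.07. Over the 31 markers the log2 fold change was negative in 18 (58.1%, against 48.3% of all tested genes) and positive in 13. Summed over the endothelial markers, TPM lay at 316 to 339 in the elmo1+/+ and at 281 to 322 in the elmo1-/- group, and without fli1 it was 254 to 269 and 233 to 272, a sum taken after fli1 was seen to be called.

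Of 20 tested mural markers, genes of pericytes and smooth muscle cells, 0 were called (edgeR, and 0 by DESeq2), 4 (20%) were lower and 0 higher at an unadjusted p under 0.05, where 3.10% of all tested genes were lower, and the median log2 fold change was -0.09. The log2 fold change was negative in 15 of the 20, or 75.0%, against 48.3% of all tested genes. The 4 genes, named after their values were seen, were tagln (ENSDARG00000033466, -0.17 ± 0.06), rgs5a (-0.17 ± 0.06), foxc1a (-0.18 ± 0.07) and cd248a (-0.17 ± 0.07). A second tested gene named tagln, ENSDARG00000045408, had the higher TPM and a log2 fold change of -0.03 ± 0.09. The log2 fold changes were 0.01 ± 0.05 for pdgfrb, 0.04 ± 0.06 for notch3 and -0.10 ± 0.09 for acta2. Summed over these markers, TPM lay at 404 to 484 in the elmo1+/+ and at 389 to 427 in the elmo1-/- group. The TPM values do not carry the library factors of the edgeR fit. On log2(TPM + 1) the median difference over all tested genes was -0.04, against 0.00 in the edgeR fit. The endothelial and mural sums include this shift.

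Relative to the summed TPM of these markers, angpt1 remained lower in elmo1-/- larvae. The sums weigh abundant genes most and do not measure cell numbers. In elmo1+/+ means, acta2 made up 155 of 443 TPM of the mural sum. Of 327 TPM of the endothelial sum, fli1 made up 66.6 and nr2f2 55.8. Per 1000 TPM of endothelial markers, angpt1 amounted to 9.64 ± 0.91 TPM for elmo1+/+ and 7.21 ± 0.68 TPM for elmo1-/- (SD over 6 samples), and the genotypes did not overlap. With fli1 left out of the sum the values were 12.1 ± 1.22 and 8.58 ± 0.82 TPM, again without overlap. Per 1000 TPM of mural markers the values were 7.16 ± 0.93 and 5.31 ± 0.51 TPM, and the ranges of 5.81 to 8.32 and 4.59 to 5.85 overlapped slightly. The difference of angpt1 was thus -0.42 on the log2 scale per endothelial marker sum, -0.50 with fli1 left out, and -0.43 per mural marker sum. Without scaling to markers, the difference of angpt1 was -0.54 on log2(TPM + 0.1). For tie1 the difference was -0.06 per endothelial marker sum and -0.13 with fli1 left out.

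**Figure D4:**
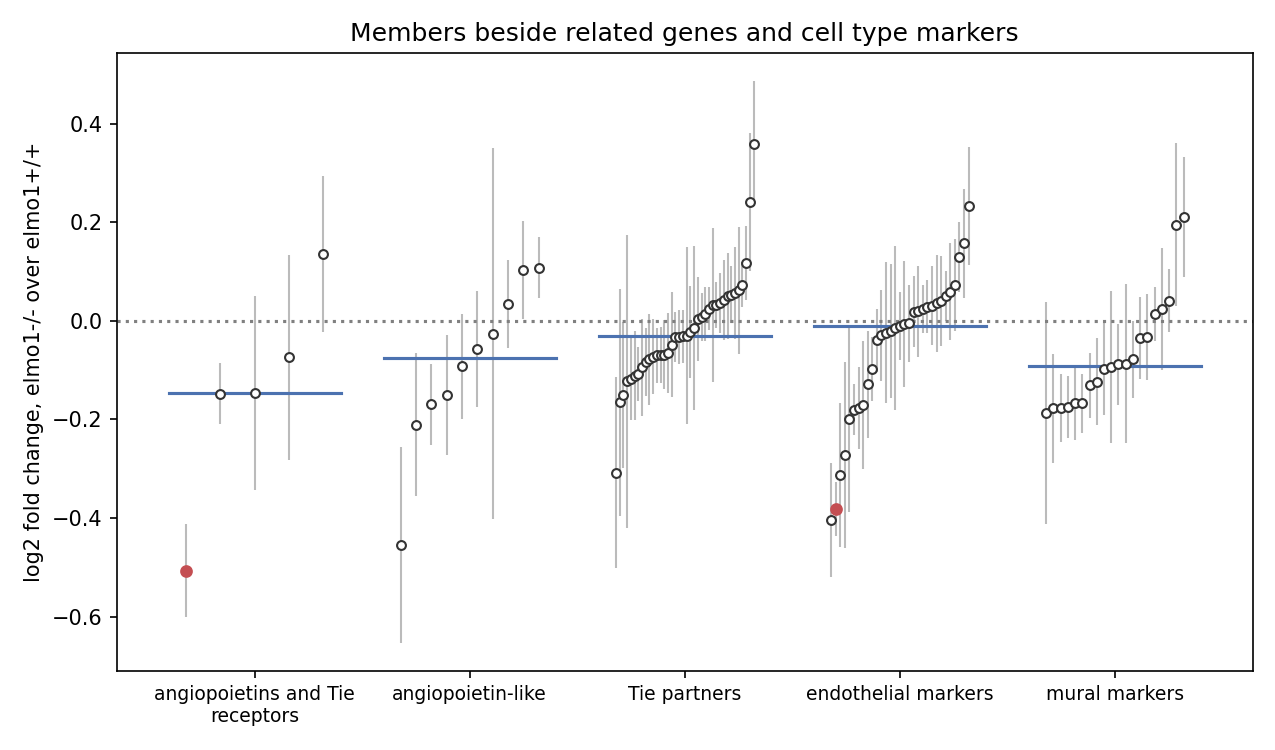
Log2 fold change of elmo1-/- over elmo1+/+ (vertical axis) for each tested gene of 5 lists (horizontal axis), with standard errors in grey, the median of each list as a blue line, and genes with an adjusted p under 0.05 (edgeR) in red. The red points are angpt1 at -0.51 and fli1 at -0.38.

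The members lie on 4 chromosomes, with tek on 5, tie1 on 6, angpt2a on 13, and angpt1 and angpt2b on 19, which also carries elmo1 (gene order of RefSeq in the assembly GRCz12tu). Alleles near the mutated elmo1 are inherited with it, so differences between the parental chromosomes had to be considered. Of 596 placed and tested genes on this chromosome 16 were called (2.68%), angpt1 included, and of 14011 on the others 16 were called (0.114%). Only 14607 of 21830 tested genes were placed, so part of the 51 called genes is missing from these counts. On the side of elmo1 that holds angpt1, 11 of 159 genes were called, 6 lower and 5 higher, and on the other side 5 of 436.

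Counted in placed and tested genes, angpt2b was 18 genes from elmo1 and angpt1 130 genes. Of the 17 genes between elmo1 and angpt2b 0 were called by edgeR, and of the 129 genes between elmo1 and angpt1 9 were called. Among the 20 nearest neighbours of angpt2b 1 was called, 8 genes away and higher by 0.72 ± 0.07 log2 units (SE; edgeR, adjusted p = 3.68e-05). Of these 20, 7 had an unadjusted p under 0.05, where 3.10% of all tested genes were lower and 3.06% higher. The called genes nearest to angpt1 were tpmt.2, a thiopurine methyltransferase gene 3 genes beyond it and higher by 3.28 ± 0.34 log2 units (SE; edgeR, adjusted p = 0.000143), and si:ch211-255a21.2, 16 genes before it and higher by 3.06 ± 0.55 log2 units (SE; edgeR, adjusted p = 0.0316). Among the 20 nearest neighbours of angpt1, 1 was called, 3 had an unadjusted p under 0.05 and log2 fold changes ranged from -0.30 to 3.28. The decrease of angpt1 thus lay in a stretch with called genes of both directions, and an effect of the loss of Elmo1 on angpt1 and an effect of alleles linked to the mutation cannot be told apart in these samples.

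**Figure D5:**
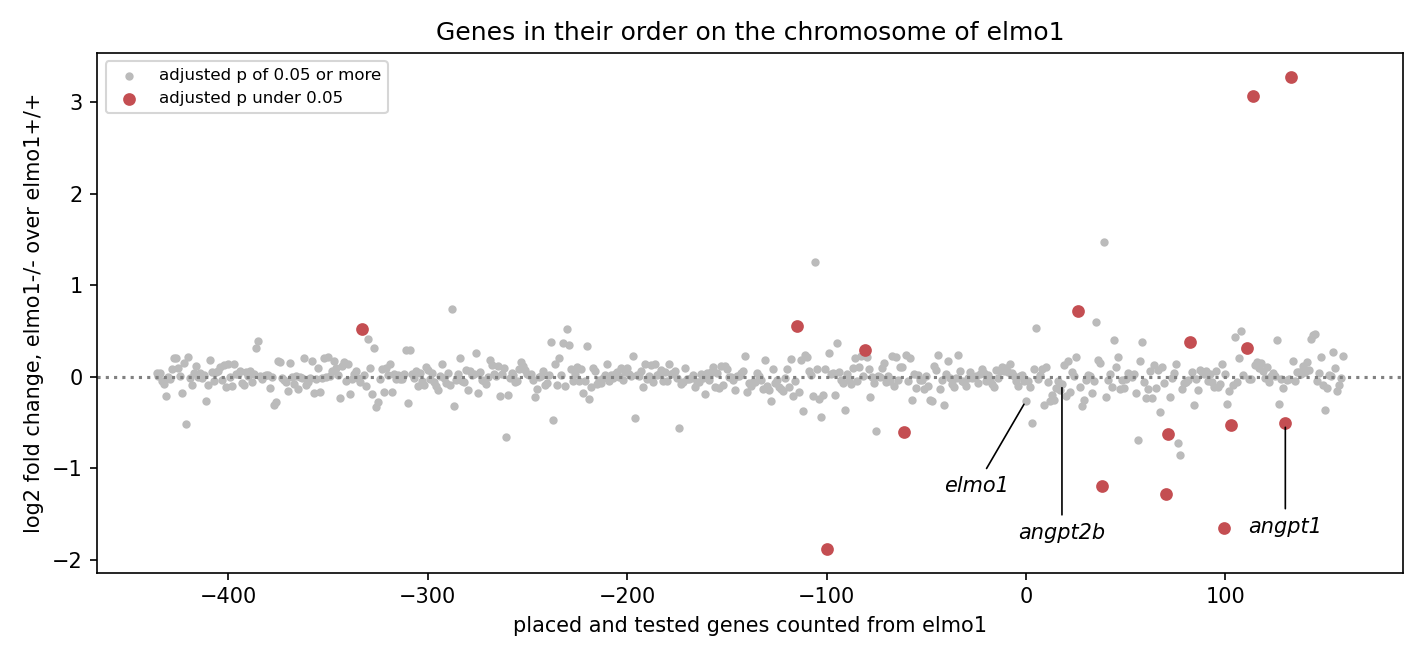
Log2 fold change of elmo1-/- over elmo1+/+ (vertical axis) of the 596 placed and tested genes on the chromosome of elmo1, in their order counted from elmo1 (horizontal axis), with called genes in red. On the side of angpt1 there are 11 called genes, angpt1 included, between log2 fold changes of -1.65 and 3.28.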

How the data were processed

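RNA of 12 samples was sequenced on a BGISEQ-500 after RNeasy purification. The submitters' processing notes name Trim Galore 0.6.4, kallisto 0.4.6 and the build GRCz11, without roles, and the annotation and use of strand are not given in the sources used here. The authors deposited an expected count and a TPM value per gene, and each sample's deposited TPM values have a sum of 1000000. The deposited expected counts are estimates, not all whole, and were rounded before testing. The files hold no column of the authors' comparisons.

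Genes were filtered with filterByExpr (minimum count 10) and tested with edgeR 4.0.16 (TMM factors, quasi-likelihood test, genotype as the only term, Benjamini-Hochberg threshold 0.05) in R 4.3.3. Standard errors were derived from fold change and F statistic, and log2 CPM used a prior count of 2. Single values were tested by two-sided exact permutation over 924 relabellings, correlations by 100000 permutations in SciPy 1.17.1. On simulated data for elmo1-/- against elmo1+/+ (21692 genes), 123 of 200 genes changed by 0.5 on the log2 scale passed the test. Of 135 calls 12 fell on unchanged genes, and data without any change gave 0 calls. The changed genes were drawn only from genes above a mean count that angpt2a and angpt2b did not reach, so the share that passed does not cover them.

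Symbols were found for 29201 of 32520 identifiers, and upper-case symbols are names of orthologues. Genes were ordered on chromosomes by symbol in RefSeq (GRCz12tu), which placed 14607 of 21830 tested genes. The members, lists and tests were chosen with earlier results of these data known. Named genes are the members, elmo1, chosen partners and markers, angiopoietin-like genes (not all reported here), list genes with an adjusted p under 0.05, the called genes nearest to angpt1 on each side, and for each member the 3 genes with a symbol and at least 1 log2 CPM of highest Pearson's r. The endothelial marker pecam1 was not analysed here. Alternatives were RLE and upper-quartile factors, DESeq2 1.42.0, limma-voom and limma-trend (limma 3.58.1) on log2(TPM + 1) and, with a smaller pseudocount, log2(TPM + 0.1), other filters, a length offset, a replicate block and each sample left out.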

Additional observations from a re-analysis of the deposited data

Results flagged for a closer look

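Among 32 groups of 6 values, 5 contained a sample far from the rest of its genotype, where chance gives 1.6, or about 1 in 20. The tek to tie1 ratio was 0.537 in elmo1+/+ replicate 6, below a range of 0.867 to 1.06 in the other elmo1+/+ samples, and tek was also lowest there at 4.72 CPM. Without this sample the log2 difference of the ratio between genotypes moved from 0.28 to 0.14.

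The other values concern the length assigned to the ligand genes, relative to the median gene. For angpt1 it was 1.040 in elmo1+/+ replicate 1, against 1.045 to 1.047 in the others, and 1.038 in elmo1-/- replicate 4, against 1.043 to 1.045. For angpt2a it was 0.742 in elmo1+/+ replicate 4, against 0.759 to 0.767. For angpt2b it was 0.843 in elmo1-/- replicate 4, against 0.847 to 0.848. In elmo1-/- replicate 4 tek was also lowest of its genotype, at 1.695. In elmo1+/+ replicate 1 angpt2b was also lowest, at 0.844. The median that scales a sample is shared by all its genes, so these flags are not independent of each other. Whether they reflect this scaling or single genes was not tested.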

How the results depend on the processing

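The direction of angpt1 was the same in all 22 other fits, which the lack of overlap between genotypes all but fixed beforehand. The call of angpt1 was kept in 7 of 10 fits with another setting and 3 of 12 with a sample left out (log2 fold change -0.54 to -0.47). Its values without a call were -0.54 for log2(TPM + 0.1) (limma, adjusted p = 0.0518), -0.51 with the length offset (edgeR, adjusted p = 0.050003) and -0.51 with the replicate block (edgeR, adjusted p = 0.0973). The range of adjusted p over these settings was 0.0067 (DESeq2) to 0.0973. Replicate numbers gave correlations of -0.03 to 0.30 between same-numbered samples (mean 0.13), and under 0.1 for numbers 5 and 6. Without a reference from unlike numbers, these values do not settle whether the numbers mark pairs. The reported fit has genotype as its only term, and the block is given as an alternative. The block gave 60 called genes and DESeq2 97, against 51, and 34 to 67 were called with a sample left out.

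With a sample left out, the range was -0.23 to -0.06 for angpt2a, -0.22 to 0.0136 for angpt2b (0.0136 and 0.0010 without replicate 4 of elmo1+/+ or elmo1-/-), 0.01 to 0.20 for tek and -0.18 to -0.12 for tie1, and none of these passed. The log2 ratio difference ranged from -0.46 to -0.21 (angpt1 to angpt2a), -0.49 to -0.32 (angpt1 to angpt2b), -0.22 to 0.13 (angpt2a to angpt2b) and 0.14 to 0.38 (tek to tie1). The order of levels as log2 ratios ranged from -0.0308 to 0.11 (tie1 over tek), 0.04 to 0.21 (tek over angpt1), 1.95 to 2.07 (angpt1 over angpt2a) and -0.0420 to 0.11 (angpt2a over angpt2b). As ratios of CPM, not divided by length, the first step was 0.96, the second 0.83 and the last -0.16. In elmo1+/+ samples alone tek over angpt1 was -0.21 and angpt1 over angpt2a 2.16. In elmo1-/- samples alone tie1 over tek was -0.0946, tek over angpt1 0.44, angpt1 over angpt2a 1.84 and angpt2a over angpt2b -0.0426. With the replicate block, over 6 within-pair differences, 0 pairs of members passed (angpt1 and angpt2b, r = 0.90, exact permutation p = 0.0486, adjusted p = 0.486). For this pair rho was 0.60 (exact permutation p = 0.242), and r was -0.58 without the 2 differences farthest from the median. Log2 differences in assigned length ranged from -0.0035 to 0.0063 (angpt2a), -0.0043 to 0.0020 (tek) and -0.020 to 0.012 (tie1). The cause of these changes was not tested. With 11 to 27 counts per sample, depth limits what can be said of angpt2a and angpt2b.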
